A study of Mus musculus with 6 samples.

Results

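The tumour necrosis factor (TNF) superfamily was followed in mouse CD4+ T cells cultured with idelalisib, a drug that blocks PI3K-delta, a lipid kinase through which antigen and cytokine receptors signal in lymphocytes. Its members were taken as the protein-coding genes whose symbols begin with Tnfsf or Tnfrsf, together with Tnf, Lta, Ltb, Ltbr, Fas, Fasl, Cd40, Cd40lg, Cd27, Cd70 and Ngfr. This gave 43 of the 54532 genes in the deposited count table, 18 ligands and 25 receptors. The idelalisib group held 3 libraries of CD4+ T cells purified from C57BL/6 spleens and kept for 72 h under T helper 1 (Th1) conditions with the drug, and the control group held 3 libraries of cells kept the same way without it. The labels do not state the dose of idelalisib, the cytokines and antibodies of the Th1 medium, whether control cultures received the solvent, the age and sex of the mice, or any pooling of animals. The labels call the libraries biological replicates but do not say that they came from separate mice, so p-values reflect how far these cultures differ from one another, which may be a technical spread.

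Ligands of the TNF superfamily are mostly trimeric proteins on the cell surface, some of which are shed, and they cluster their receptors on the same or a neighbouring cell. Receptors with a death domain can recruit FADD and caspase-8 and start apoptosis, whereas receptors that bind TRAF adaptors activate NF-kappaB and mitogen-activated kinases and support survival and expansion. Activated CD4+ T cells display many costimulatory receptors of the family, such as OX40, GITR and 4-1BB, and several ligands, such as CD40L, with which they instruct B cells and dendritic cells.

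Library totals were 13372318 to 16035945 reads with idelalisib and 14879325 to 16770452 in control cells, so a level of 1 CPM (counts per 1000000 reads, on totals scaled by the trimmed mean of M-values, TMM) rested on 13.99 to 16.74 reads. All 9 markers of CD4+ T cells were detected in both groups, 2 of them higher (Cd3e, Cd3g) and 1 lower (Lck) with idelalisib, and included Cd4 at 474 ± 53.1 CPM with idelalisib and 554 ± 38.1 CPM in control cells (SD, n = 3). Cd8a, by contrast, was at 3.40 ± 1.27 CPM with idelalisib and 1.82 ± 0.606 CPM in control cells. Cd8b1 was at 4.65 ± 0.374 CPM with idelalisib and 4.22 ± 1.26 CPM in control cells. The natural killer cell gene Ncr1 had no read, while Eomes, of the same marker list, was at 9.30 ± 1.88 CPM with idelalisib and 2.88 ± 0.316 CPM in control cells. Among the idelalisib libraries, replicate 2 lay apart on the second principal component, which held 11.8% of the variance. In bulk RNA, fewer cells that express a gene and less RNA per cell cannot be told apart.

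Of the 43 members, 33 had enough reads to be tested (10 reads or more in at least 3 libraries, after adjustment for depth) and 10 did not. Among the 13 tested ligands, 3 rose and 6 fell under idelalisib (quasi-likelihood test in edgeR, threshold 0.05 after Benjamini-Hochberg adjustment over 14530 genes). Among the 20 tested receptors, 6 rose and 4 fell. Over all tested genes 44.6% were called, 22.2% higher and 22.4% lower, so the 10 of 20 called receptors lie near that background. The 9 of 13 called ligands, 69.2%, lie above it, on few genes. Changes of at least 1 on the log2 scale were called for 8 members, 5 of them ligands, beside 11.7% of all tested genes. CPM ranges of the groups did not overlap for 10 ligands and 12 receptors, beside 54.6% of all tested genes. The median log2 fold change was -0.16 for tested ligands and -0.04 for tested receptors, against 0.01 for all genes. Scaled by library size alone, which moves all genes to a median of 0.16, these medians were -0.01 and 0.12. Tnfsf15 and Tnfrsf11a reached the read minimum in every control library but in 0 and 1 idelalisib libraries, and Cd40 reached it in 3 idelalisib and 2 control libraries, so each was tested mainly through the group in which it was higher.

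**Figure D1:**
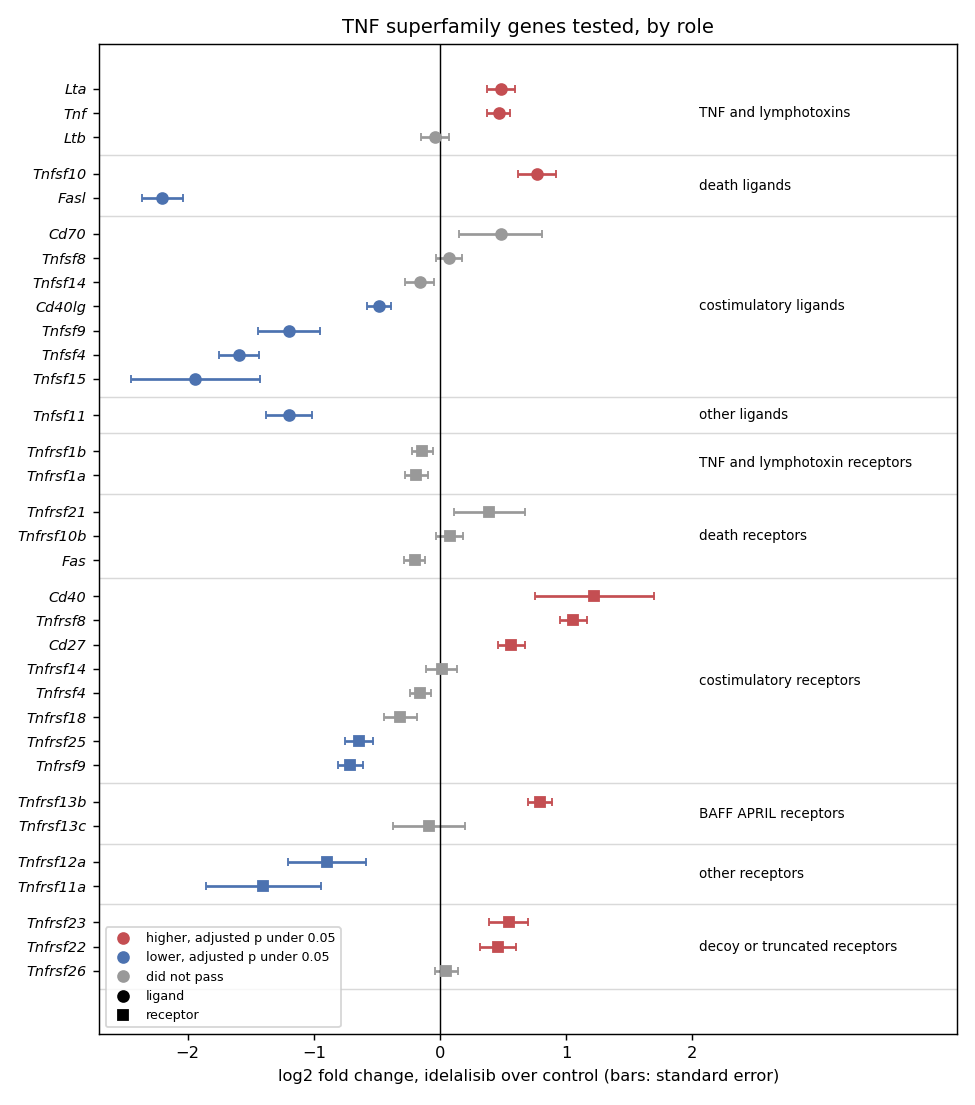
Log2 fold change (idelalisib over control, horizontal axis) of the 33 tested TNF superfamily genes, grouped by role. Circles are ligands and squares receptors, bars are standard errors, and colour marks the call at an adjusted p under 0.05. Fasl stands lowest at -2.20, Tnf and Lta lie above 0 beside Ltb at -0.04, and the 4 costimulatory ligands that passed were all lower.

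The start regions of 4 genes are shown because these are the ligand and the receptor with the largest called fall and the largest called rise among members that averaged at least 10 CPM in a group and had a promoter sequence starting within 100 bases of the deposited gene start. Sequences are from RefSeq on GRCm38.p6, run from 250 bases before the transcript start to 50 bases after it, and are written 5′ to 3′ on the strand of the gene. Capitals mark matches on either strand to motifs for AP-1 (TGANTCA), FOXO (GTAAACA), interferon-stimulated response elements (by name), gamma-activated sites (TTCNNNGAA), the NFAT core (GGAAAA) and NF-kappaB sites (by name). Fasl and Tnfsf10 are death ligands, and Tnfrsf25 and Tnfrsf8 are receptors found on activated T cells. They lie at chr1:161788446-161788745 (minus strand), chr3:27316827-27317126 (plus strand), chr4:152115684-152115983 (plus strand) and chr4:145315115-145315414 (minus strand). The RefSeq start of Tnfsf10 is 49 bases from the deposited one.
Fasl: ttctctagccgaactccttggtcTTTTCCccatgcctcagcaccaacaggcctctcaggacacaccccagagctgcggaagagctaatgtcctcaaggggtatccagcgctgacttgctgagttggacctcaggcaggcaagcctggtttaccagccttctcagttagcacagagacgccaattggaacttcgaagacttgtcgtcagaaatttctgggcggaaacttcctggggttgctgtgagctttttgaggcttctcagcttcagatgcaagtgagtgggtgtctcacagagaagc
Tnfsf10: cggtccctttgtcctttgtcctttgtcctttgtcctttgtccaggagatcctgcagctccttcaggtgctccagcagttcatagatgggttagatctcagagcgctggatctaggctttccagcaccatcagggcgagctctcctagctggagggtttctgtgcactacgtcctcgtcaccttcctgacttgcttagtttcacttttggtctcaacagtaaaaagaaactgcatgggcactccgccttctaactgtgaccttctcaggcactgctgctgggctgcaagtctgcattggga
Tnfrsf25: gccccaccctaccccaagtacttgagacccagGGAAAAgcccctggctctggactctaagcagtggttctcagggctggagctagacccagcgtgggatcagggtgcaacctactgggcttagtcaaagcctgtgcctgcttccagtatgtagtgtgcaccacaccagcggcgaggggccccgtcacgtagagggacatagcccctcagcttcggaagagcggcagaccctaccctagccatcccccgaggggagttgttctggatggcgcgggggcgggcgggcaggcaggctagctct
Tnfrsf8: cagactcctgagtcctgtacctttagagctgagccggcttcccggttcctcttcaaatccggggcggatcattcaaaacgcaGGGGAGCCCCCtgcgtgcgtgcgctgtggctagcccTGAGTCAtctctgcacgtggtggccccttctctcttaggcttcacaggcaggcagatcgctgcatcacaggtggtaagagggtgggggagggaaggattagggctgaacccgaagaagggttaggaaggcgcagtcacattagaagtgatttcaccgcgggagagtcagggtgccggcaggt

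The Fasl window held a single match, to the NFAT core on the opposite strand, and the Tnfrsf25 window held a single match to the same core. That core occurs in 23.4% of the 32851 RefSeq windows of this length. The Tnfrsf8 window held an AP-1 match and a pair of NF-kappaB matches that overlap each other, motifs found in 7.8% and 8.5% of all windows. The Tnfsf10 window held none of these letters. Among the 33 members with a RefSeq window, 12 had the NFAT core, 9 a gamma-activated site, 6 an AP-1 match, 4 an NF-kappaB match, 4 an interferon-stimulated response element and 1 the FOXO motif. FOXO, interferon-stimulated response and gamma-activated motifs occur in 3.6%, 3.4% and 8.3% of all windows. A member counted if any window under its symbol matched, whereas these shares are of single windows, so counts and shares are not directly comparable. For 7 higher and 7 lower members with a window, the NFAT core was present in 3 and 3, the AP-1 motif in 1 and 1, the NF-kappaB motif in 1 and 2, and the gamma-activated site in 1 and 2.

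Transcripts of TNF and lymphotoxin alpha, ligands of the TNF receptors, rose moderately, while that of lymphotoxin beta, which anchors lymphotoxin alpha at the membrane, did not pass the test. Tnf (ENSMUSG00000024401, mm10 chromosome 17, 35199381 to 35202007) had 64.1, 67.0 and 75.0 CPM in the idelalisib libraries, against 49.3, 46.4 and 53.6 CPM in the control libraries. Every idelalisib library was above every control library, a difference of 1.38-fold (log2 change 0.46 with SE 0.09, adjusted p = 0.00118 by edgeR). Lta (ENSMUSG00000024402, mm10 chromosome 17, 35203165 to 35205351) had 503, 424 and 565 CPM in the idelalisib libraries, against 375, 388 and 305 CPM in the control libraries. Its ranges were also apart, though the lowest idelalisib library, replicate 2, was close to the highest control library (log2 change 0.48 with SE 0.11, adjusted p = 0.00348 by edgeR). Ltb (ENSMUSG00000024399, mm10 chromosome 17, 35194439 to 35196320) had 189, 166 and 237 CPM in the idelalisib libraries, against 213, 209 and 187 CPM in the control libraries, and the groups overlapped (log2 change -0.04 with SE 0.11, adjusted p = 0.793 by edgeR). These 3 genes lie within 10.9 kb of chromosome 17.

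Per length, lymphotoxin alpha was the most abundant ligand transcript. In RPKM (CPM per kilobase, from the deposited gene lengths) Lta was at 359 ± 50.9 RPKM with idelalisib and 258 ± 32.22 RPKM in control cells (SD, n = 3), Ltb at 130.2 ± 24.1 RPKM with idelalisib and 134 ± 9.12 RPKM in control cells and Tnf at 41.9 ± 3.44 RPKM with idelalisib and 30.4 ± 2.20 RPKM in control cells. Lta took up 56.3 ± 2.27% of the summed ligand RPKM in idelalisib libraries and 45.0 ± 2.94% in control libraries. Summed over all 18 ligands, levels were 1003 ± 91.3 CPM with idelalisib and 910.7 ± 56.9 CPM in control cells, and these ranges overlapped.

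**Figure D2:**
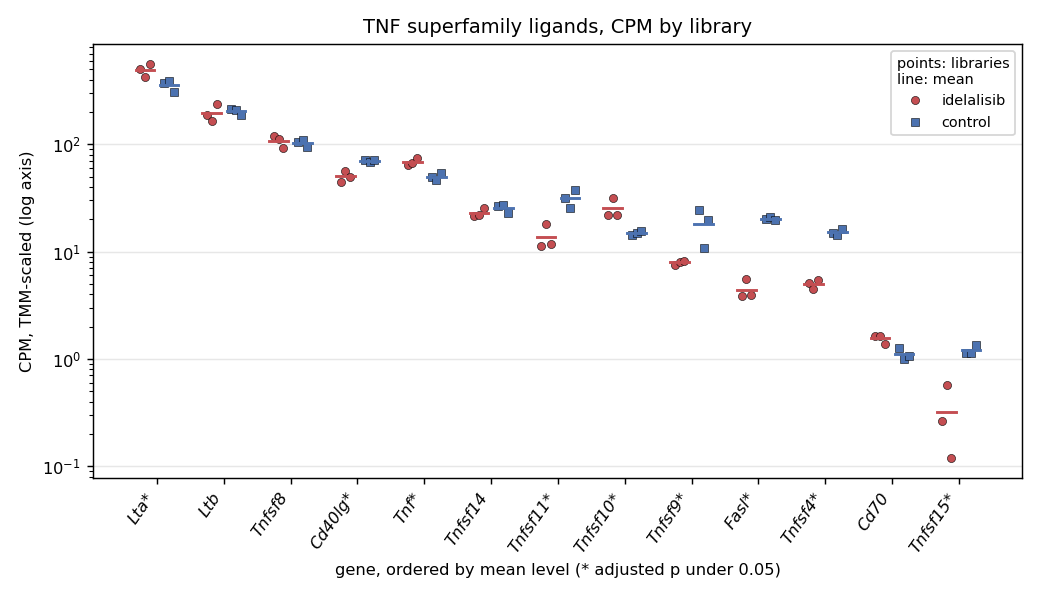
CPM on a log axis for each of the 13 tested ligands in every library, with circles and the left column for idelalisib and squares and the right column for control. Lines are group means and asterisks mark genes with an adjusted p under 0.05. Fasl sits between 3.82 and 5.52 CPM with idelalisib and between 19.5 and 21.1 CPM in control cells.

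The receptors for TNF and lymphotoxins did not pass the test. Tnfrsf1a, which encodes the death domain receptor TNFR1, had 35.9, 38.6 and 39.4 CPM in the idelalisib libraries, against 44.9, 42.1 and 42.5 CPM in the control libraries. Tnfrsf1b, which encodes TNFR2, a receptor prominent on activated and regulatory T cells, had 75.6, 79.6 and 79.1 CPM in the idelalisib libraries, against 82.0, 87.0 and 89.3 CPM in the control libraries. Both were lower in every idelalisib library than in any control library, but by little (log2 fold changes -0.19, edgeR adjusted p = 0.107, and -0.14, edgeR adjusted p = 0.172). Scaled by library size alone, the value for Tnfrsf1b was 0.015. The lymphotoxin beta receptor gene Ltbr, known mainly from stromal and myeloid cells, had 10, 4 and 5 reads in the idelalisib libraries, against 9, 7 and 2 reads in the control libraries, too few to be tested.

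The death ligands moved in opposite directions. Fasl, which encodes the ligand that kills Fas-bearing cells (ENSMUSG00000000817, mm10 chromosome 1, 161780689 to 161788495), had 3.82, 5.52 and 3.94 CPM in the idelalisib libraries, against 20.1, 21.1 and 19.5 CPM in the control libraries. No idelalisib library came near the control libraries, and the level was 4.59-fold lower (log2 change -2.20 with SE 0.16, adjusted p = 2.70e-07 by edgeR). Tnfsf10, which encodes TRAIL (ENSMUSG00000039304, mm10 chromosome 3, 27317028 to 27342427), had 22.1, 31.6 and 22.2 CPM in the idelalisib libraries, against 14.1, 14.9 and 15.4 CPM in the control libraries. All 3 idelalisib libraries were above the controls, with replicate 2 the highest, and the level was 1.70-fold higher (log2 change 0.77 with SE 0.15, adjusted p = 0.000833 by edgeR). Without idelalisib replicate 2 the log2 fold change of Tnfsf10 was 0.59.

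Their receptors did not pass the test. Fas, the death receptor for Fas ligand, had 74.3, 81.3 and 76.7 CPM in the idelalisib libraries, against 85.5, 89.9 and 91.6 CPM in the control libraries. Its ranges did not overlap, and its difference missed the threshold (log2 change -0.20 with SE 0.08, adjusted p = 0.0568 by edgeR), though it passed without idelalisib replicate 2 (adjusted p = 0.0237), among protein-coding genes alone (0.0351) and with a minimum of 30 reads (0.0493). Tnfrsf10b, the mouse TRAIL death receptor, had 31.9, 30.6 and 28.4 CPM in the idelalisib libraries, against 26.6, 31.2 and 28.4 CPM in the control libraries, and the groups overlapped (log2 change 0.08 with SE 0.11, adjusted p = 0.580 by edgeR). Tnfrsf21, which encodes death receptor 6, had 46, 29 and 41 reads in the idelalisib libraries, against 28, 26 and 32 reads in the control libraries, and the groups overlapped (log2 change 0.39 with SE 0.28, adjusted p = 0.280 by edgeR). Ngfr, the neurotrophin receptor of neurons, had no read in any library.

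Among the 8 costimulatory ligands, 4 fell and none rose, 3 were tested without passing, and Tnfsf18 was not tested. These 4 of 7 tested stand beside 22.4% lower among all genes, and include Tnfsf15, which no idelalisib library brought past the read minimum. Tnfsf4 encodes OX40L, which sustains T cell survival through OX40 (ENSMUSG00000026700, mm10 chromosome 1, 161395409 to 161418410), and had 5.07, 4.46 and 5.43 CPM in the idelalisib libraries, against 14.9, 14.1 and 16.3 CPM in the control libraries. The groups were well apart and the level was 3.02-fold lower (log2 change -1.59 with SE 0.16, adjusted p = 3.25e-06 by edgeR). Tnfsf9 encodes 4-1BBL, the ligand of 4-1BB (ENSMUSG00000035678, mm10 chromosome 17, 57105325 to 57107757), and had 7.57, 8.07 and 8.18 CPM in the idelalisib libraries, against 24.2, 10.8 and 19.5 CPM in the control libraries. Idelalisib libraries lay close together below the control libraries, which differed widely among themselves (log2 change -1.19 with SE 0.25, adjusted p = 0.00241 by edgeR). The adjusted p of Tnfsf9 was 0.0513 without idelalisib replicate 2, and the antisense-oriented gene Gm11110 overlaps 14.9% of its exon bases, so some reads may not be its own.

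Cd40lg encodes CD40L, by which helper T cells activate B cells and dendritic cells (ENSMUSG00000031132, mm10 chromosome X, 57212143 to 57224042). It had 44.8, 56.5 and 49.4 CPM in the idelalisib libraries, against 71.8, 67.8 and 71.1 CPM in the control libraries. All idelalisib libraries were lower, by 1.40-fold (log2 change -0.48 with SE 0.10, adjusted p = 0.00105 by edgeR). Tnfsf15, which encodes TL1A, the ligand of DR3, was rare at 4, 8 and 2 reads in the idelalisib libraries, against 18, 17 and 19 reads in the control libraries. The groups did not overlap, but the fold change rests on few reads (log2 change -1.94 with SE 0.51, adjusted p = 0.00715 by edgeR).

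The other costimulatory ligands did not pass. Tnfsf8, which encodes CD30L, had 120.5, 111 and 93.1 CPM in the idelalisib libraries, against 106, 109.7 and 94.1 CPM in the control libraries, and the groups overlapped (log2 change 0.07 with SE 0.10, adjusted p = 0.607 by edgeR). Tnfsf14, which encodes LIGHT, a ligand of HVEM and of the lymphotoxin beta receptor, had 21.3, 22.1 and 25.4 CPM in the idelalisib libraries, against 26.8, 27.3 and 23.0 CPM in the control libraries, and the groups overlapped (log2 change -0.16 with SE 0.12, adjusted p = 0.278 by edgeR). Cd70, the ligand of CD27, was low. It had 1.65, 1.63 and 1.37 CPM in the idelalisib libraries, against 1.25, 0.991 and 1.07 CPM in the control libraries, higher in every idelalisib library without passing (log2 change 0.48 with SE 0.33, adjusted p = 0.255 by edgeR). Tnfsf18, which encodes the GITR ligand, had 1 read over the idelalisib libraries and 5 over the control libraries.

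Tnfsf11 encodes RANKL, known for osteoclast formation and also made by activated T cells (ENSMUSG00000022015, mm10 chromosome 14, 78277445 to 78308043). It had 11.3, 18.1 and 11.8 CPM in the idelalisib libraries, against 31.5, 25.6 and 37.2 CPM in the control libraries. The highest idelalisib library, replicate 2, was below the lowest control library, and the level was 2.29-fold lower (log2 change -1.20 with SE 0.18, adjusted p = 0.000248 by edgeR). Ligands of the B cell survival axis were near 0 in both groups. Tnfsf13b, which encodes BAFF, had 1, 4 and 8 reads in the idelalisib libraries, against 1, 3 and 5 reads in the control libraries. Tnfsf13, which encodes APRIL, had 11 reads over the idelalisib libraries and 4 over the control libraries, and Tnfsf12, which encodes TWEAK, had 3 and 3. Tnfsfm13, a read-through transcript of these neighbours that overlaps 60.0% of the exon bases of Tnfsf13 and 48.3% of those of Tnfsf12, had no read, and how reads in these overlaps were assigned is not stated, so the counts of these 3 genes are uncertain.

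Among the 8 costimulatory receptors, all tested, 3 rose and 2 fell, a share called of 62.5% beside 44.6% of all genes, on 8 genes that include Cd40. Tnfrsf8 encodes CD30, a receptor of activated T cells (ENSMUSG00000028602, mm10 chromosome 4, 145267137 to 145315164), and had 252, 210.4 and 284 CPM in the idelalisib libraries, against 129, 111 and 119 CPM in the control libraries. The groups were far apart and the level was 2.08-fold higher (log2 change 1.06 with SE 0.11, adjusted p = 3.75e-06 by edgeR). Cd27, which supports priming and survival of T cells and marks less differentiated cells (ENSMUSG00000030336, mm10 chromosome 6, 125232622 to 125237010), had 68.9, 56.3 and 70.1 CPM in the idelalisib libraries, against 43.1, 48.3 and 40.6 CPM in the control libraries. It was higher in every idelalisib library, by 1.48-fold (log2 change 0.57 with SE 0.10, adjusted p = 0.000639 by edgeR). Cd40, the receptor of antigen-presenting cells, was near the read minimum at 15, 15 and 31 reads in the idelalisib libraries, against 4, 11 and 10 reads in the control libraries (log2 change 1.22 with SE 0.47, adjusted p = 0.0480 by edgeR). The call of Cd40 was lost in 7 of 14 alternatives, among them DESeq2 (adjusted p = 0.0886), the fit with replicate number as a block (0.0554) and every fit that left out 1 library other than idelalisib replicate 2, with adjusted p from 0.0259 to 0.204 over the 14.

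Tnfrsf9 and Tnfrsf25 were the costimulatory receptors that fell. Tnfrsf9 encodes 4-1BB, an activation-induced receptor (ENSMUSG00000028965, mm10 chromosome 4, 150914562 to 150946102), and had 504, 395 and 532 CPM in the idelalisib libraries, against 761, 824 and 755 CPM in the control libraries. Every idelalisib library was below every control library, with replicate 2 the lowest, and the level was 1.64-fold lower (log2 change -0.71 with SE 0.10, adjusted p = 8.61e-05 by edgeR). Tnfrsf25 encodes DR3, a death domain receptor that costimulates T cells (ENSMUSG00000024793, mm10 chromosome 4, 152115934 to 152120119), and had 52.3, 39.5 and 52.6 CPM in the idelalisib libraries, against 81.0, 73.8 and 71.0 CPM in the control libraries. It too was lower in all idelalisib libraries, by 1.56-fold (log2 change -0.64 with SE 0.11, adjusted p = 0.000358 by edgeR).

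OX40, GITR and HVEM did not pass. Tnfrsf4, which encodes OX40, had 417, 419 and 480.1 CPM in the idelalisib libraries, against 495, 512 and 460.2 CPM in the control libraries. The groups overlapped through idelalisib replicate 3 (log2 change -0.16 with SE 0.08, adjusted p = 0.140 by edgeR), and without that library the value was -0.21 (adjusted p = 0.0222). Tnfrsf18, which encodes GITR, had 276, 237 and 360.4 CPM in the idelalisib libraries, against 372, 382 and 333 CPM in the control libraries. It also overlapped through idelalisib replicate 3 (log2 change -0.31 with SE 0.13, adjusted p = 0.0670 by edgeR), without which its log2 fold change was -0.48 (adjusted p = 0.000483). DESeq2 (0.0279), the fit with no count filter (0.00332) and the fit among protein-coding genes alone (0.0408) also called Tnfrsf18 lower. The antisense gene Gm16008 overlaps 27.2% of the exon bases of Tnfrsf18, so some of its reads may also belong elsewhere. Tnfrsf14, which encodes HVEM, had 61.5, 40.9 and 51.2 CPM in the idelalisib libraries, against 52.1, 50.9 and 49.3 CPM in the control libraries, with idelalisib libraries on both sides of the controls (log2 change 0.01 with SE 0.12, adjusted p = 0.934 by edgeR).

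**Figure D3:**
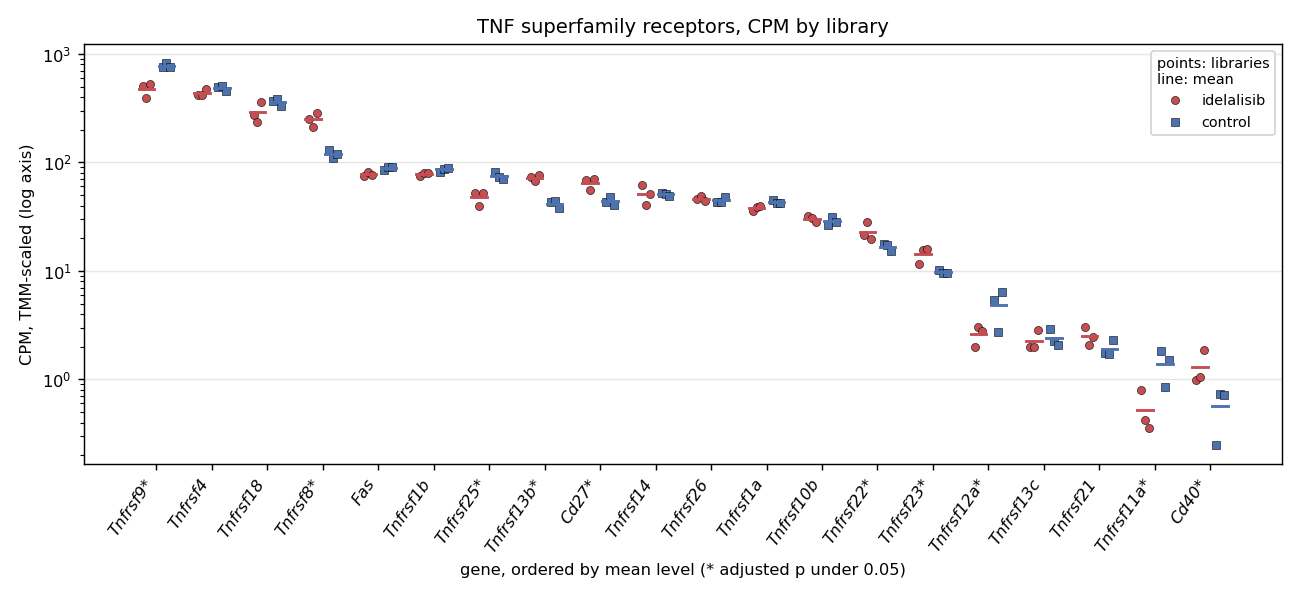
CPM on a log axis for each of the 20 tested receptors in every library, with circles and the left column for idelalisib and squares and the right column for control. Lines are group means and asterisks mark genes with an adjusted p under 0.05. Tnfrsf9, Tnfrsf4, Tnfrsf18 and Tnfrsf8 lie above 110 CPM in every library, and Cd40 and Tnfrsf11a lie lowest, under 2 CPM.

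Per length, a few costimulatory receptors made up most of the receptor transcripts. Tnfrsf4 was at 321 ± 26.2 RPKM with idelalisib and 358 ± 19.21 RPKM in control cells (SD, n = 3), Tnfrsf18 at 191 ± 41.3 RPKM with idelalisib and 238 ± 16.83 RPKM in control cells and Tnfrsf9 at 175 ± 26.6 RPKM with idelalisib and 287 ± 14.04 RPKM in control cells. Tnfrsf8 was at 71.9 ± 10.7 RPKM with idelalisib and 34.6 ± 2.65 RPKM in control cells and Fas at 43.0 ± 1.98 RPKM with idelalisib and 49.4 ± 1.73 RPKM in control cells. In control cells the order was Tnfrsf4, Tnfrsf9, Tnfrsf18, Fas, and with idelalisib it was Tnfrsf4, Tnfrsf18, Tnfrsf9, Tnfrsf8. Tnfrsf18 and Tnfrsf9 with idelalisib lay within their spread of each other. The share of Tnfrsf9 in the summed receptor RPKM was 17.8 ± 1.27% with idelalisib and 25.2 ± 0.671% in control cells, that of Tnfrsf8 was 7.31 ± 0.337% and 3.05 ± 0.297%, and that of Tnfrsf4 was 32.9 ± 1.84% and 31.5 ± 0.372%. Summed over all 25 receptors, levels were 2010 ± 211 CPM with idelalisib and 2293 ± 85.1 CPM in control cells, with ranges that overlapped slightly.

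The receptors of the BAFF and APRIL axis included a clear rise. Tnfrsf13b encodes TACI, known chiefly from B cells (ENSMUSG00000010142, mm10 chromosome 11, 61126755 to 61149372), and had 72.7, 67.2 and 76.3 CPM in the idelalisib libraries, against 42.7, 44.5 and 37.7 CPM in the control libraries. Every idelalisib library was above every control library, and the level was 1.73-fold higher (log2 change 0.79 with SE 0.09, adjusted p = 1.62e-05 by edgeR). Tnfrsf13c, which encodes the BAFF receptor of B cells, had 1.97, 1.98 and 2.87 CPM in the idelalisib libraries, against 2.94, 2.25 and 2.07 CPM in the control libraries, and the groups overlapped (log2 change -0.09 with SE 0.28, adjusted p = 0.823 by edgeR). Tnfrsf17, which encodes BCMA, the receptor of plasma cells, had no read in any library, which allows up to 0.179 to 0.212 CPM per idelalisib library and 0.188 to 0.214 CPM per control library (counting error only).

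Markers of B cells moved with TACI and CD40. Of 12 B cell markers, 8 were tested, 6 were higher with idelalisib (Cd79a, Cd79b, Pax5, Bank1, Cd22 and Blk) and none was lower. Their summed level was 29.2 to 37.0 CPM in idelalisib libraries and 24.5 to 24.9 CPM in control libraries, of which Ebf1 was at 14.7 ± 2.70 CPM with idelalisib and 15.4 ± 0.128 CPM in control cells. The defining marker Cd79a was at 1.87 ± 0.748 CPM with idelalisib and 0.750 ± 0.216 CPM in control cells (SD, n = 3), and Ms4a1 was at 0.518 ± 0.0855 CPM with idelalisib and 0.606 ± 0.347 CPM in control cells. Their part in the rise of Tnfrsf13b and Cd40 was not tested. Of 11 myeloid and dendritic cell markers, which other cells with CD40 would carry, 1 was tested and did not pass, Siglech had no read, and the sum was 3.03 to 3.68 CPM with idelalisib and 1.57 to 2.97 CPM in control cells.

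The other signalling receptors fell at low levels. Tnfrsf12a encodes Fn14, the TWEAK receptor of many tissue cells, and had 1.97, 3.04 and 2.81 CPM in the idelalisib libraries, against 5.44, 2.71 and 6.43 CPM in the control libraries. The groups overlapped through control replicate 2 (log2 change -0.89 with SE 0.31, adjusted p = 0.0289 by edgeR), and the call was lost scaled by library size alone (adjusted p = 0.0596), with limma-voom (0.0603) and without idelalisib replicate 1 or 3 or control replicate 1 or 3, with adjusted p up to 0.150. Tnfrsf11a encodes RANK, the receptor of RANKL, and had 12, 6 and 6 reads in the idelalisib libraries, against 29, 13 and 21 reads in the control libraries (log2 change -1.40 with SE 0.46, adjusted p = 0.0225 by edgeR). Its call was lost without idelalisib replicate 3 (adjusted p = 0.0787), control replicate 1 (0.117) or control replicate 3 (0.0687). Tnfrsf19, which encodes TROY, had no read with idelalisib and 2 in control cells.

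Decoy receptors bind ligand without signalling through a death domain. The mouse genes Tnfrsf22 and Tnfrsf23 encode decoy receptors for TRAIL and lie beside Tnfrsf26 within 78.2 kb of chromosome 7. Tnfrsf22 had 21.3, 28.1 and 19.5 CPM in the idelalisib libraries, against 17.6, 17.2 and 15.2 CPM in the control libraries, with idelalisib above control throughout (log2 change 0.46 with SE 0.14, adjusted p = 0.0187 by edgeR). Its call was lost without idelalisib replicate 2 (0.30, adjusted p = 0.0596) and without control replicate 3 (adjusted p = 0.0827). Tnfrsf23 had 11.6, 15.6 and 15.8 CPM in the idelalisib libraries, against 10.3, 9.64 and 9.51 CPM in the control libraries, also without overlap (log2 change 0.54 with SE 0.15, adjusted p = 0.0104 by edgeR). Of the 50-base words in their transcripts, 27.42% for Tnfrsf22 and 18.01% for Tnfrsf23 occur in other genes, for both mainly in each other, so the division of reads between the pair is uncertain. The antisense gene E230032D23Rik also overlaps 4.1% of the exon bases of Tnfrsf23 and 3.3% of those of Tnfrsf26. Tnfrsf26 had 45.7, 49.1 and 44.3 CPM in the idelalisib libraries, against 43.2, 43.1 and 48.2 CPM in the control libraries, and the groups overlapped (log2 change 0.05 with SE 0.09, adjusted p = 0.695 by edgeR). Tnfrsf11b, the soluble decoy for RANKL known as osteoprotegerin, had 7, 17 and 4 reads in the idelalisib libraries, against 8, 4 and 10 reads in the control libraries, and was not tested.

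Of 26 known ligand and receptor pairs among the members, 16 had both genes tested. In 6 of these both genes were called, 3 with both lower, 2 with both higher and 1 in opposite directions. The 44.6% called over all tested genes is a share of single genes, so it is no measure for pairs. The pairs with both lower were Tnfsf9 with Tnfrsf9, Tnfsf15 with Tnfrsf25, and Tnfsf11 with Tnfrsf11a, and the pair with opposite directions was Cd40lg at -0.48 with Cd40 at 1.22. The pairs with both higher were Tnfsf10 at 0.77 with its decoys Tnfrsf22 at 0.46 and Tnfrsf23 at 0.54, which share sequence with each other and were added to the pairs after their values were seen. Tnfsf15, Tnfrsf11a and Cd40 were tested mainly through the group in which they were higher, and the calls of Tnfsf9, Tnfrsf11a, Cd40 and Tnfrsf22 were lost in some of the alternatives given above for each, so 5 of these 6 pairs hold such a gene. In 9 pairs only 1 gene was called, as for Tnfsf4 at -1.59 with Tnfrsf4 at -0.16, Fasl at -2.20 with Fas at -0.20, and Tnfsf8 at 0.07 with Tnfrsf8 at 1.06. In 1 pair, Tnfsf14 with Tnfrsf14, neither gene was called. Some genes belong to several pairs, so the pairs are not independent, and the difference within a pair was not tested.

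**Figure D4:**
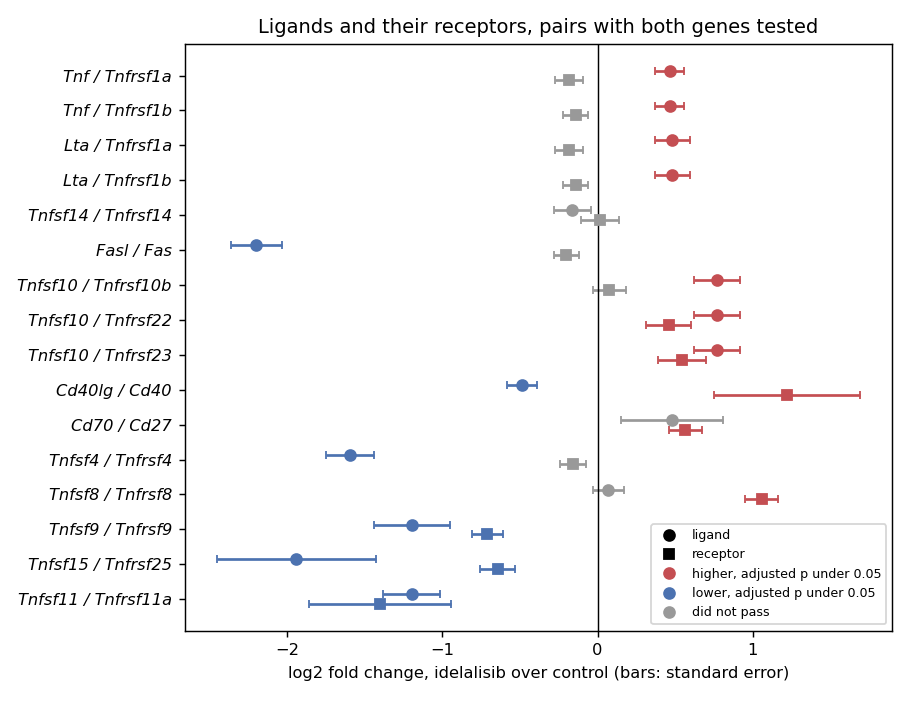
Log2 fold change (idelalisib over control, horizontal axis) of ligand (circle) and receptor (square) in the 16 pairs with both genes tested, with standard errors. Colour marks the call at an adjusted p under 0.05. Fasl and Tnfsf4 stand at -2.20 and -1.59 beside receptors that did not pass, and Tnfsf15, Tnfrsf11a and Cd40 rest on few reads.

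Neighbouring members on a chromosome did not all move alike. With a gap of at most 300 kb, 24 of the 43 members formed 9 clusters. Fasl and Tnfsf4, both lower, lie in a cluster of 393.1 kb on chromosome 1 with Tnfsf18. On chromosome 17 Tnfsf9, which fell, lies within 88.9 kb of Cd70 and Tnfsf14, neither of which passed. On chromosome 4, Tnfsf15 fell beside Tnfsf8, which did not pass, and Tnfrsf8 rose beside Tnfrsf1b, which did not pass. Tnfrsf4 and Tnfrsf18, within 15.1 kb of each other, had log2 fold changes of -0.16 and -0.31.

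Other genes of the pathway were taken from lists of adaptors, the death arm, the NF-kappaB arm, its brakes, shedding enzymes, TNF-induced genes, and relatives or partners outside the naming rule. Over these 7 lists, 84 of 87 genes were tested, of which 18 were higher and 23 lower. This is 48.8% called, near the 44.6% of all genes. Of 15 adaptors, 2 were higher and 4 lower, 40.0% called. Birc2, which encodes the ubiquitin ligase cIAP1, was at 129 ± 8.02 CPM with idelalisib and 217 ± 10.8 CPM in control cells (SD, n = 3; log2 fold change -0.75, edgeR adjusted p = 7.21e-06). Traf1, an adaptor induced by activation, and Traf4 were also lower, with log2 fold changes of -0.52 and -0.36. The higher adaptors were Ripk1, the kinase of the TNFR1 complex, at 0.40, edgeR adjusted p = 0.00508, and Traf3ip3 at 0.25.

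The death arm changed in both directions, with 6 of 14 genes higher and 5 lower, 78.6% called beside 44.6% of all genes. The list is short and was chosen with earlier results of these data known, so this share is a description and not a test. Fadd, the adaptor that links Fas to caspase-8, rose to 9.96 ± 0.914 CPM with idelalisib, against 3.88 ± 0.717 CPM in control cells (SD, n = 3; log2 change 1.36 with SE 0.19, adjusted p = 7.56e-05 by edgeR). Diablo, which relieves inhibition of caspases, was higher by 0.60 (log2). Casp8, the initiator caspase of death receptors, was at 154 ± 7.07 CPM with idelalisib and 109 ± 5.07 CPM in control cells (log2 fold change 0.50, edgeR adjusted p = 0.000189). Among the lower genes were Dedd, a death effector domain gene, at -1.29, Faim, an inhibitor of Fas-induced apoptosis, at -1.001, and Cflar, which encodes the caspase-8 inhibitor FLIP, at -0.60, edgeR adjusted p = 0.000567.

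Of 17 genes of the NF-kappaB arm, 3 were higher and 6 lower, 52.9% called. Nfkbib, which encodes the inhibitor IkappaB-beta, fell to 63.7 ± 11.8 CPM with idelalisib, against 140.3 ± 5.47 CPM in control cells (SD, n = 3; log2 fold change -1.14, edgeR adjusted p = 3.55e-06). Ikbkb, a catalytic subunit of the IkappaB kinase complex, and Tab1, a partner of the kinase TAK1, had log2 fold changes of -0.45 and -0.43. The higher genes were Nfkbie at 0.45, Ikbkg, the regulatory subunit NEMO, at 0.44, and Map3k14, the kinase NIK of the noncanonical arm, at 0.39. Of 12 brakes, 5 were lower and none was higher. The share called, 41.7%, lies near the 44.6% of all genes, of which 22.4% were lower. Tnfaip3, which encodes the ubiquitin-editing enzyme A20, had 170.2, 179 and 160.1 CPM in the idelalisib libraries, against 541, 526 and 555 CPM in the control libraries. The groups were far apart, and the Tnfaip3 transcript was 3.18-fold lower (log2 change -1.67 with SE 0.08, adjusted p = 5.41e-09 by edgeR). Tax1bp1 and Tnip2, which work with A20, had log2 fold changes of -0.60 and -0.57.

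Of 8 shedding and processing genes, 1 was higher and 2 lower, 37.5% called. Adam17, the sheddase of TNF, did not pass (log2 change -0.14 with SE 0.10, adjusted p = 0.272 by edgeR). The lower genes were the rhomboid-like Rhbdf1 at -0.58 and the convertase Furin at -0.24, and the higher one was the intramembrane protease Sppl2b at 0.49. Of 14 tested genes commonly induced by TNF, 5 were higher and 1 was lower, 42.9% called. Among them were the chemokines Ccl5 at 2.64 and Cxcl10 at 1.21, Bcl2a1b at 0.52 and the lower gene Ier3 at -1.38. Cxcl10 had 27, 49 and 43 reads with idelalisib, against 6, 24 and 20 in control libraries (adjusted p = 0.0344 by edgeR). Other inducers act on several of these TNF-induced genes. Outside the symbols used here, Relt, a receptor of the family, did not pass (log2 change 0.19 with SE 0.13, adjusted p = 0.240 by edgeR), and neither did Eda2r (log2 change -0.97 with SE 0.49, adjusted p = 0.140 by edgeR). Btla, the inhibitory partner of HVEM, rose to 575 ± 38.6 CPM with idelalisib, against 314 ± 18.7 CPM in control cells (SD, n = 3; log2 change 0.87 with SE 0.08, adjusted p = 2.20e-06 by edgeR).

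**Figure D5:**
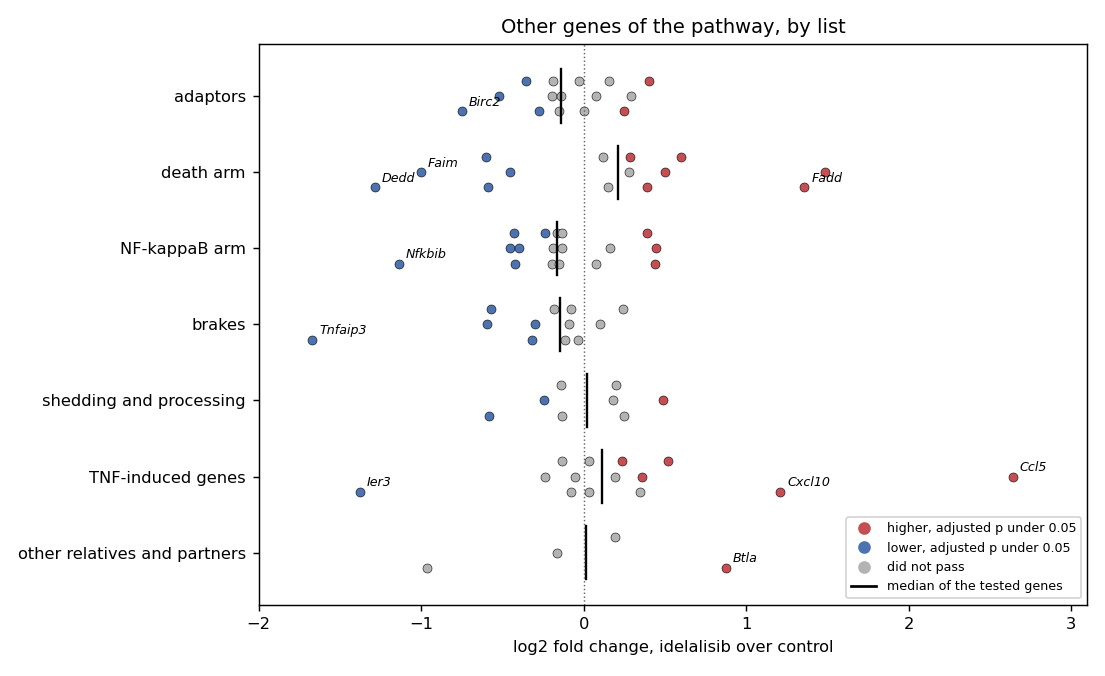
Log2 fold change (idelalisib over control, horizontal axis) of each tested gene in the pathway lists. Black lines are list medians, colour marks the call at an adjusted p under 0.05, and called genes described in the text that moved by at least 0.7 are named. Tnfaip3 stands lowest at -1.67 and Ccl5 highest at 2.64.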

How the data were processed

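Poly(A) RNA of 6 cultures was sequenced. The authors deposited raw counts, whole numbers of reads for each gene, beside gene lengths. The submitters' processing notes name the genome build mm10, the read trimmer fastp, the aligner HISAT2 (version 2.0.5) and the counter featureCounts (version 1.5.0-p3). Strand setting, treatment of multi-mapping reads and gene annotation: not given in the sources used here. Of the deposited gene identifiers 99.8% occur in GENCODE M21, which was used for exon overlaps and shared words.

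Counts were filtered with filterByExpr (minimum count 10, minimum total 15), scaled by TMM and compared by the robust quasi-likelihood F test of edgeR (version 4.0.16, R 4.3.3) with group as the sole term, with Benjamini-Hochberg adjustment over 14530 genes. Each fold change has idelalisib on top. A standard error is the log2 change divided by the square root of F. CPM values use TMM-scaled totals. Within groups the libraries were not duplicates (chi-square per degree of freedom 4.99 to 20.3).

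Members and lists were chosen with earlier results of these data known. All members could be named, and of each list up to 3 called genes per direction with the largest change that averaged at least 1 CPM; some named genes (Cd4, Casp8, Adam17, Relt, Eda2r and markers) were added for their role, and some genes the rule would name are not reported here. Alternatives were other scalings, DESeq2 1.42.0, limma-voom (limma 3.58.1), other filters, protein-coding genes alone, a threshold of 0.01, a replicate block and leaving out each library. The method was tested on simulated data in which far fewer genes changed than were called here. That test does not measure its errors on data like these. Marker lists for cells outside the sort are summarised in the closing section.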

Additional observations from a re-analysis of the deposited data

How the results depend on the processing

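Of the fits of members under alternatives, 450 kept direction and side of the threshold, 19 lost and 8 gained a call, and 14 changed sign. The 3 higher ligands were called under every alternative, and the lower ligands numbered 5 or 6. At an adjusted p under 0.01, 3 receptors were higher and 2 lower. Leaving out 1 library gave 3 higher ligands, 5 to 6 lower ligands, 4 to 5 higher receptors, 2 to 5 lower receptors, 30 to 54 called pathway genes and 5103 to 7180 called genes overall. Lower receptors numbered 2 without control replicate 1 or 3. Scaled by library size alone, 4832 genes rose and 2219 fell, so that 68.5% of called genes were higher, against 49.7% with TMM. A minimum of 30 reads left no value for Tnfsf15, Cd40, Tnfrsf11a and Cd70.

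Sign changes occurred for 5 members, none of them called in any alternative. Ltb was at 0.11 scaled by library size alone, 0.0037 without idelalisib replicate 1, and between -0.18 and 0.078 when 1 library was left out. Tnfsf8 lay between -0.00081 and 0.18 when 1 library was left out, and Tnfrsf1b was at 0.015 scaled by library size alone. Tnfrsf14 was at -0.0035 with limma-voom, -0.012 among protein-coding genes alone, -0.0029 with the replicate block, and between -0.12 and 0.16 when 1 library was left out. Tnfrsf13c was at 0.066 scaled by library size alone and between -0.28 and 0.075 when 1 library was left out. The cause was not tested.

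The labels do not say whether replicate numbers pair the libraries. Deviations of same-numbered libraries from their group means correlated at 0.08, -0.13 and -0.10. With 3 libraries per group, these values cannot show whether the replicate number marks pairs. With the number as a block, 3 ligands were higher and 6 lower, 5 receptors were higher and 4 lower, 37 pathway genes and 5961 genes overall were called, and Cd40 lost its call. Depth limits Tnfsf15, Tnfrsf11a, Cd40, Cd70 and the 10 untested members, all at about 2 CPM or less.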

Other observations

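Other marker lists gave the following values. Of 3 regulatory T cell genes, Foxp3 was higher at 0.56, edgeR adjusted p = 0.0261, Ikzf2 was lower at -0.42, edgeR adjusted p = 0.0292, and Ctla4 fell to 579 ± 5.54 CPM with idelalisib, against 941 ± 29.9 CPM in control cells (SD, n = 3; log2 fold change -0.70, edgeR adjusted p = 5.26e-06). The Ikzf2 ranges of the groups overlapped. Of the CD8 markers, Cd8a was higher at 0.91, edgeR adjusted p = 0.0360, and Cd8b1 did not pass. The Cd8a ranges overlapped too, with 2.96, 2.41 and 4.84 CPM with idelalisib, against 1.38, 2.51 and 1.57 CPM in control libraries. Of 5 natural killer cell markers only Eomes was tested, and it rose to 9.30 ± 1.88 CPM with idelalisib, against 2.88 ± 0.316 CPM in control cells (log2 change 1.69 with SE 0.21, adjusted p = 2.95e-05 by edgeR). The others did not rise with it. Klrb1c had 2 reads over the idelalisib libraries and 8 over the control libraries, Klra4 had 5 and 11, and Klra8 had 1 and 1. Ncr1 had no read. Of 2 gamma delta T cell genes, Tcrg-C1 was higher at 1.11 and Trdc did not pass. Tcrg-C1 was rare, at 17, 22 and 35 reads with idelalisib, against 10, 8 and 15 in control libraries. Among 6 granulocyte markers, Ly6g and Cxcr2 were higher at 1.59 and 0.84. Ly6g was at 117 ± 11.2 CPM with idelalisib and 38.8 ± 2.77 CPM in control cells. Cxcr2 was at 18.4 ± 3.83 CPM with idelalisib and 10.3 ± 1.91 CPM in control cells. By contrast, S100a8 and S100a9 had no read in control cells and means of 0.0907 and 0.0199 CPM with idelalisib. Of 5 erythroid genes, 1 was tested and did not pass.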
